A study of Mus musculus with 4 samples.

Results

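Transcripts of T cells and innate lymphoid cells were examined on arrays of sorted colonic dendritic cells. The 9 genes, Cd3e, Cd3g, Cd2, Lck, Thy1, Il7r, Gata3, Il22 and Il23r, were taken as a fixed list out of 20637 named genes and were found by the RefSeq accession of each probe. They are read by 10 probes, since Cd2 has 2. The cells came from C57BL/6J mice and were isolated by flow cytometry from the lamina propria of the colon, which is the connective tissue beneath its epithelium. The 4 groups were CD300a deficient mice raised germ-free (KO GF, labelled male), WT mice raised germ-free (WT GF, labelled male), CD300a deficient mice raised under specific pathogen-free conditions (KO SPF, labelled female) and WT mice raised under specific pathogen-free conditions (WT SPF, labelled female). CD300a is an inhibitory receptor of myeloid cells that binds phosphatidylserine. Each group has 1 array, and per the study's design text lamina propria cells of 5 mice were obtained for each condition. The sources used here give neither the age of the mice nor how Cd300a was disrupted.

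The CD3 chains carry the signal of the T cell receptor into the cell, where the kinase Lck starts the phosphorylation cascade. Cd2 and Thy1 are surface proteins of T cells that other cells also carry. IL-7 receptor, encoded by Il7r, keeps lymphocytes and innate lymphoid cells alive. Gata3 directs type 2 helper T cells and group 2 innate lymphoid cells. In the gut, IL-23 made by myeloid cells acts through the receptor encoded by Il23r on T cells and group 3 innate lymphoid cells, which then release IL-22, a cytokine that acts on the epithelium.

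A level is log2 of the scanner's processed signal, from which the array's own 75th percentile was subtracted. Levels of different genes are not set against each other, because probes differ in how they bind. Differences on that scale run as KO minus WT between genotypes and as GF minus SPF between housings. With 1 array in each group no difference has a replicate check, and no test or p-value is given. A gene is counted as higher or lower when its difference is at least 2-fold, among genes well above background on at least 1 array of the pair. The error given after ± is the scanner software's own error, in units of signal or carried to the log2 scale, which covers the reading of the spot and not the spread between mice. In bulk RNA, fewer cells of a type and less RNA per cell cannot be told apart.

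Several features of the arrays touch these results. Between 13797 and 15055 of the 20637 genes were well above background on an array. Both SPF arrays were on slide 1 and both GF arrays on slide 2, so housing cannot be told apart from slide, scan and labelled sex. Cd300a did not read lower in KO-labelled cells (8.05 KO GF, 7.60 WT GF, 7.91 KO SPF and 7.88 WT SPF), but no source says whether its probe lies inside the disrupted part, so this does not check the genotype labels. Xist, a transcript of female cells, read 3.62 in KO GF cells although these are labelled male, and was below background in WT GF cells. The Y-linked Ddx3y, Uty, Kdm5d and Eif2s3y were all well above background on both GF arrays, as their male label has it. Ddx3y read 0.59 in KO GF and 2.07 in WT GF cells. Because the GF arrays differ in Xist, KO minus WT under GF housing cannot be told apart from a difference in the sex of the cells. On the SPF arrays, labelled female, they were below background except Eif2s3y, which read -2.56 in KO SPF cells. With 1 array in each group, no result can be given without these arrays.

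Dendritic cell markers were detected on every array but were mostly lower on the GF arrays, and so were housekeeping genes. Of 11 matched markers, 10, 10, 11 and 11 were well above background on the KO GF, WT GF, KO SPF and WT SPF arrays, and Itgax, which encodes CD11c, read 2.15, 3.19, 4.44 and 4.32. Their summed linear levels were 368 (KO GF) and 600 (WT GF), against 822 (KO SPF) and 801 (WT SPF). In GF minus SPF of KO-labelled cells, 8 of 11 were at least 2-fold lower and 0 above 0 (median -1.20). Of all genes 15.4% were lower in that comparison. In WT cells 2 were at least 2-fold lower and 1 higher, and 10 were below 0 (median -0.37). There 9.44% of all genes were lower and 17.5% higher. Housekeeping genes had medians of -0.98 in KO-labelled and -0.32 in WT cells, with 0 of 5 above 0 in each. Their summed linear levels were 317 (KO GF), 520 (WT GF), 733 (KO SPF) and 735 (WT SPF). Epithelial markers were higher on the GF arrays, with 7 of 7 well above background on both and summed linear levels of 90.6 (KO GF) and 54.2 (WT GF), against 5 of 7 and 2.57 on the KO SPF and 4 of 7 and 1.86 on the WT SPF array. B cell and plasma cell markers were highest on the KO SPF array, with a summed linear level of 96.4, against 1.87 (KO GF), 2.59 (WT GF) and 21.4 (WT SPF), although Blk was below background on all 4. The part of these cells in the results below was not tested.

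Of the 9 genes, 6 were well above background on all 4 arrays, namely Cd3e, Cd2, Lck, Thy1, Il7r and Il22. Il23r was so on both KO-labelled arrays and on neither WT array. Cd3g was so on the WT GF array alone. Gata3 was below background on every array, so it has no measured difference here. No spot of the 10 probes was flagged or saturated.

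**Figure D1:**
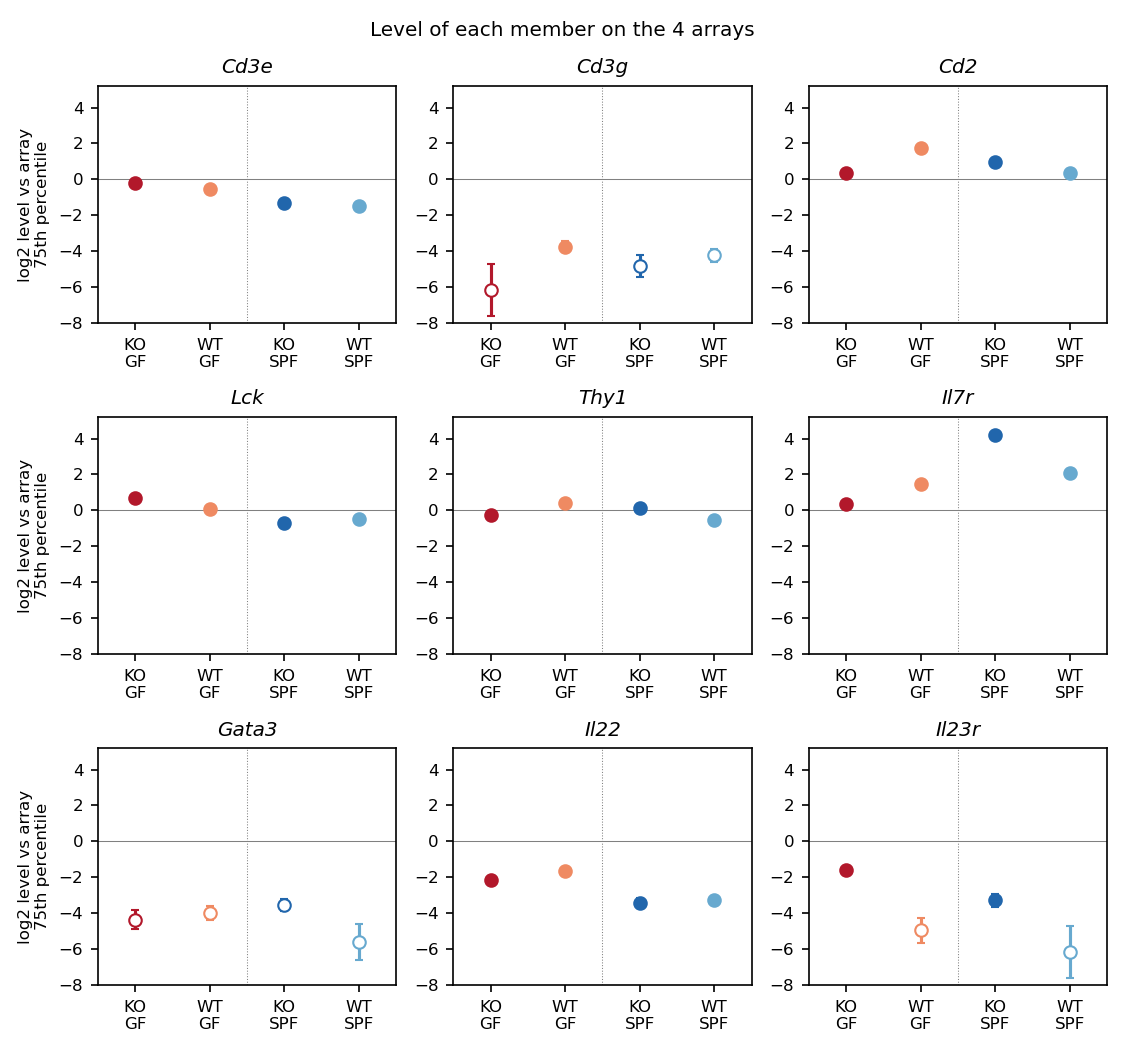
Levels of the 9 genes (log2 relative to the array's 75th percentile, vertical axis) on the KO GF, WT GF, KO SPF and WT SPF arrays. Filled points were well above background and open points were not, and bars are the scanner's error. Il7r has its highest point on the KO SPF array at 4.22, and Il23r is filled on both KO-labelled arrays and open on both WT arrays.

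The counts of the 9 genes are given beside those of all genes. In KO minus WT under SPF housing, 2 of 7 measured genes were at least 2-fold higher (Il7r and Il23r) and 0 lower, where 5.61% of all 14877 genes were higher and 6.61% lower (12.2% in either direction). The median of the 7 was 0.62 and that of all genes -0.06. In KO minus WT under GF housing, 1 of 8 was higher (Il23r) and 3 lower (Cd3g, Cd2 and Il7r), where 8.8% of 15697 genes were higher and 7.77% lower (16.6% in either direction). The medians were -0.59 and -0.20, and the median of all genes in this pair runs from -0.43 with median scaling to 0.08 with the deposited table. Housekeeping genes had a median of -0.72 there, and 0 of 5 were above 0. Of the genes counted in this pair, Il23r was below background on the WT GF array and Cd3g on the KO GF array. With signal above background required on both arrays, 0 of 6 were higher and 2 lower (Cd2 and Il7r), beside 817 higher and 851 lower of 14210 genes.

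In GF minus SPF of KO-labelled cells, 4 of 7 measured genes were higher (Cd3e, Lck, Il22 and Il23r) and 1 lower (Il7r), where 21.6% of 15572 genes were higher and 15.4% lower (37.0% in either direction). The median was 1.11 against 0.05 for all genes. In WT cells 2 of 7 were higher (Cd2 and Il22) and 0 lower, where 17.5% of 15656 genes were higher and 9.44% lower (26.9% in either direction), with medians of 0.94 and 0.13. The 2 housing differences use different arrays, but both set slide 2 against slide 1. The other 75 lymphoid genes of the lists had the opposite balance, with 11 of 57 higher and 27 lower in KO-labelled cells (median -0.76) and 11 of 58 higher and 15 lower in WT cells (median -0.36). Between genotypes, 7 of 55 were higher and 6 lower under SPF (median 0.03) and 3 of 54 higher and 10 lower under GF housing (median -0.40). In GF minus SPF, housekeeping genes had medians below 0 too (-0.98 in KO-labelled and -0.32 in WT cells). So had dendritic cell markers (-1.20 and -0.37), and the part of either in the balance of the 75 genes was not tested.

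**Figure D2:**
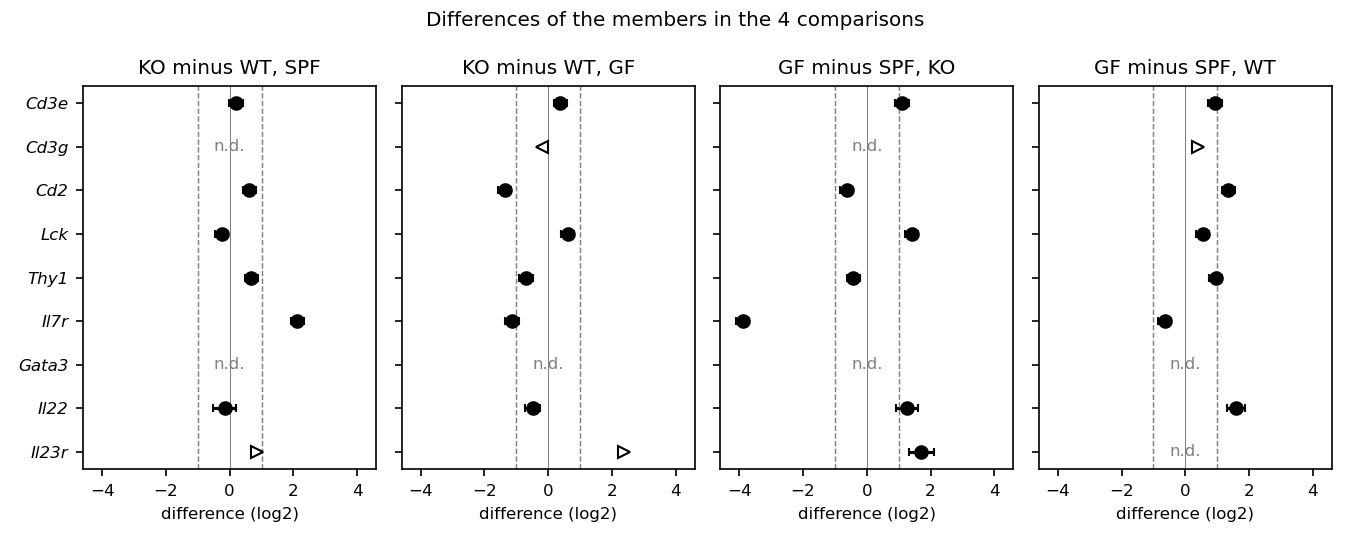
Differences of the 9 genes (log2, horizontal axis) in each comparison. Filled points are measured on both arrays with the scanner's error as bars, open triangles are bounds pointing to the larger difference, n.d. marks genes below background on both arrays, and dashed lines mark 2-fold. Il7r lies at 2.12 in KO minus WT under SPF housing and at -3.90 in GF minus SPF of KO-labelled cells.

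The CD3 chains and Lck come first. Cd3e, the epsilon chain that every T cell receptor complex needs, read -0.18 ± 0.15 on the KO GF and -0.56 ± 0.15 on the WT GF array, against -1.30 ± 0.16 on the KO SPF and -1.50 ± 0.16 on the WT SPF array. Both GF arrays were above both SPF arrays. In processed signal these are 182 and 129 units on the GF arrays against 64.0 and 58.4 units on the SPF arrays. GF minus SPF was 1.11 in KO-labelled and 0.94 in WT cells, a 2.17-fold and a 1.92-fold difference. The first falls under 2-fold with normexp background correction (0.68) and with median scaling (0.83). Between genotypes Cd3e differed by 0.20 ± 0.22 under SPF and 0.38 ± 0.21 under GF housing.

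Lck, the kinase that phosphorylates the CD3 chains, had the same order of housings. It read 0.70 ± 0.14 on the KO GF and 0.08 ± 0.15 on the WT GF array, against -0.72 ± 0.15 on the KO SPF and -0.46 ± 0.15 on the WT SPF array. Its GF minus SPF difference was 1.41 ± 0.21 in KO-labelled cells and 0.55 ± 0.21 in WT cells. The first stayed past 2-fold in all 10 alternatives (1.03 to 1.75), although those on dim signals or on several probes of a gene cannot move it. The KO-labelled array was above the WT array under GF housing, by 0.61, and below it under SPF housing, with a difference of -0.25.

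Cd3g, the gamma chain, was near the floor of the measurement. Its processed signal was 2.9 ± 2.9 units on the KO GF and 14.2 ± 3.0 on the WT GF array, against 5.5 ± 2.4 on the KO SPF and 8.8 ± 2.2 on the WT SPF array. Only WT GF cells were well above background, so that bounds alone can be given. For such a pair the bright value was set against the dim value or the lowest signal well above background on that array, whichever is higher. By this bound Cd3g was at least 1.15-fold lower on the KO GF than on the WT GF array, although the measured difference was -2.40 and was counted above as at least 2-fold. It was at least 1.32-fold higher on the WT GF than on the WT SPF array. With normexp the sign of that last difference turned (-0.06).

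Cd3e and Lck promoters are shown because these transcripts had like profiles over the 4 arrays. Among 12883 other genes above background on all 4, Lck was number 337 in closeness to Cd3e, by the root mean square distance of the centred log2 values (0.18). With 4 arrays such closeness is common, as 768 genes lay within 0.25 of Cd3e, and the 3 nearest were Kcnab1 (0.02), Defa3 (0.04) and Wfdc3 (0.04). The 3 nearest to Lck were Ptgfrn (0.03), Hrh4 (0.03) and Col4a4 (0.05). The windows run from 250 bases before to 50 bases after the annotated start, are from RefSeq on GRCm38.p6 and are written 5′ to 3′ on the gene's strand, the minus strand for both, at chr9:45009562-45009861 for Cd3e and chr4:129573592-129573891 for the upstream start of Lck. Capitals mark AGGAAG or its reverse complement CTTCCT, the core bound by ETS family factors.
Cd3e: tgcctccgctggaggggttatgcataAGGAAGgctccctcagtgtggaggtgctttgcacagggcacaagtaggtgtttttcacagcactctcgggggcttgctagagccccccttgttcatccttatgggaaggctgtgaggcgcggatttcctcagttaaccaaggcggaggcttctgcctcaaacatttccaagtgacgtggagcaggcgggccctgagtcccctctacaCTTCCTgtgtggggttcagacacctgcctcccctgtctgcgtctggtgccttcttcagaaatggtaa
Lck: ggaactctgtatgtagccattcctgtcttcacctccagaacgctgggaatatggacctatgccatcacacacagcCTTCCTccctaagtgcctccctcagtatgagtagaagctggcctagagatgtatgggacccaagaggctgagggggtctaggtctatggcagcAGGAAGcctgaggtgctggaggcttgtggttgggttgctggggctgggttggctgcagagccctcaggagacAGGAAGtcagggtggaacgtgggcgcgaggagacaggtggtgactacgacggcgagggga
The Cd3e window holds 2 matches and this Lck window 3, and the window at the other annotated Lck start, chr4:129558323-129558622, holds 1. Of 7 genes of the list with a window in the table, 3 (Cd3e, Il7r and Lck) hold the motif on either strand, and so do 35.4% of all 32851 windows of 300 bases. The other motifs searched, on both strands, were AGATAA (the core of the family of Gata3; in Cd3g and Il22, 11.2% of all windows), TGTGGT (RUNX family; in Il7r and Lck, 16.8%), AGGTCA (a hormone receptor core that ROR factors also bind; in Il23r, 16.3%) and TATAAA (the start site box; in Il22, 13.6%). The motifs were chosen with the windows in view, and a match is a description of letters.

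Other genes of the T cell receptor complex and its signalling did not follow Cd3e and Lck as a group. In the annotation Cd3d lies between Cd3g and Cd3e on chromosome 9. Cd3d, the delta chain, was well above background on both SPF arrays (-2.41 KO and -2.88 WT) and on neither GF array, so it was at least 2.90-fold lower on the KO GF than on the KO SPF array and at least 2.01-fold lower on the WT GF than on the WT SPF array. This is the opposite direction to Cd3e. Cd247, the zeta chain, was above background on the WT SPF array alone (-3.47), and Cd8a and Trat1 on none. Zap70, the kinase recruited to the CD3 chains, read -1.06 (KO GF), -1.68 (WT GF), -3.34 (KO SPF) and -2.54 (WT SPF), a GF minus SPF difference of 2.28 in KO-labelled and 0.87 in WT cells. A second Zap70 probe was well above background on both GF arrays (-2.86 KO and -3.33 WT) and on neither SPF array. Ptprc, which encodes the leukocyte phosphatase CD45 that activates Lck and is present on all leukocytes, was lower on the GF arrays, with differences of -1.92 in KO-labelled and -1.12 in WT cells. Fyn, a relative of Lck that many cell types use, was lower too (-2.33 and -1.40).

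Counted over the lists, the split was mixed. Of the 15 receptor signalling genes 11 were measured, and GF minus SPF was at least 2-fold up for 2 and down for 5 in KO-labelled cells (median -0.89), and up for 1 and down for 2 in WT cells (median -0.30). Of the 13 costimulation and differentiation genes, 2 of 12 were up and 4 down in KO-labelled (median -0.54) and 3 of 11 up and 2 down in WT cells (median -0.21). Of all genes, 21.6% were up and 15.4% down in KO-labelled cells, and 17.5% up and 9.44% down in WT cells. Housekeeping genes (median -0.98) and dendritic cell markers (-1.20) were also below 0 in KO-labelled cells, and their part in these medians was not tested. Foxp3, the factor of regulatory T cells, read -0.50 (KO GF) and -0.86 (WT GF), against -1.72 (KO SPF) and -1.58 (WT SPF). Bcl11b, which T cells and group 2 innate lymphoid cells need, was at least 4.14-fold (KO) and 5.97-fold (WT) higher on the GF arrays. In contrast Ctla4, an inhibitory receptor, was lower there, with differences of -2.19 in KO-labelled and -1.86 in WT cells. Cd4 read 4.47 (KO GF) and 5.18 (WT GF), against 3.38 (KO SPF) and 3.30 (WT SPF). It is also carried by some mouse dendritic cells and macrophages.

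**Figure D3:**
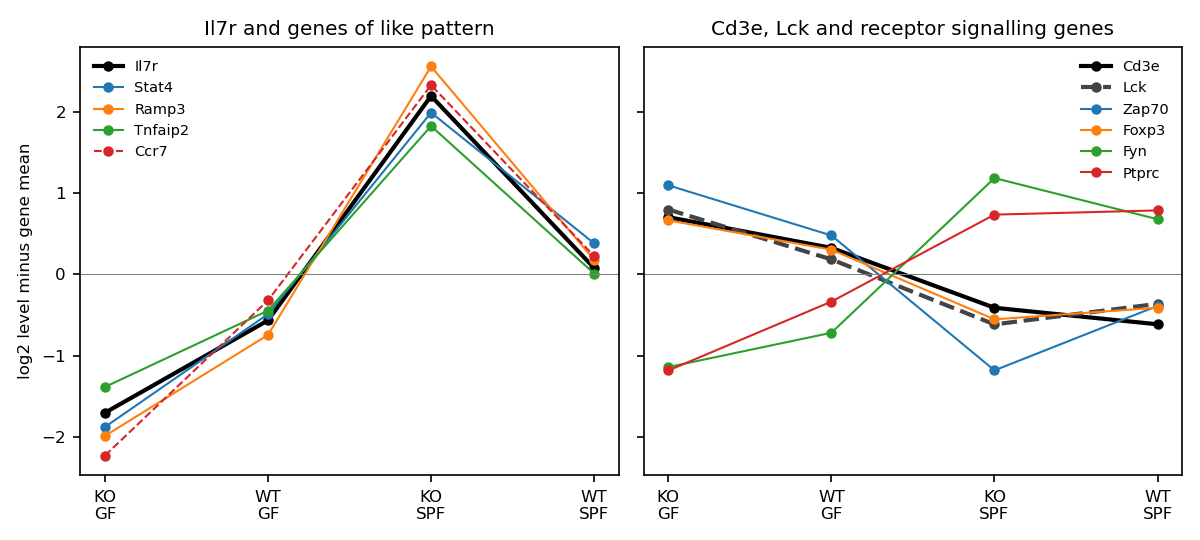
Levels on the 4 arrays minus the gene's own mean (log2, vertical axis), for Il7r with its 3 nearest genes and Ccr7 (left) and for Cd3e and Lck with 4 T cell or leukocyte signalling genes chosen after their values were seen (right). Il7r and the 4 genes beside it peak on the KO SPF array, while Cd3e, Lck, Zap70 and Foxp3 are higher on both GF arrays than on both SPF arrays and Fyn and Ptprc are lower.

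Cd2 and Thy1 differed from the CD3 pattern. Cd2, an adhesion receptor that binds CD48 in mice, is carried by T cells, natural killer cells and B cells. Its main probe read 0.36 on the KO GF and 1.72 on the WT GF array, against 0.99 on the KO SPF and 0.37 on the WT SPF array. The WT GF array was the highest. This probe has 10 spots on each array, whose log2 values had an SD of 0.08, 0.07, 0.07 and 0.10 in the same order, and the spots of the KO GF array (240 to 283 units) did not overlap those of the WT GF array (581 to 680 units). Across the 122 probes with 10 spots the median SD between spots was 0.08 to 0.10, so these differences exceed the spread between spots of 1 array, which says nothing of the spread between mice.

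On the second Cd2 probe, with 1 spot, the levels were -1.13 (KO GF), 0.24 (WT GF), 0.23 (KO SPF) and -0.20 (WT SPF). Both probes gave the same GF genotype difference, -1.37. Over 10 alternatives it ran from -1.60 to -1.08 and so stayed past 2-fold, although those on dim signals cannot move it. The probes disagreed on housing. GF minus SPF in WT cells was 1.35 by the main and 0.44 by the second probe, and 0.90 by their mean, which is under 2-fold. In KO-labelled cells it was -0.63 and -1.36. Cd48, the ligand, had the same GF genotype direction (-1.12, and -1.18 by a second probe). That direction was common in this pair, where 0 of 5 housekeeping genes, 0 of 6 macrophage markers and 1 of 10 dendritic cell markers were above 0. The 3 genes nearest to Cd2 by profile were Gata2 (0.05), Acsbg3 (0.05) and Selenok-ps1 (0.06), and 133 lay within 0.25.

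**Figure D4:**
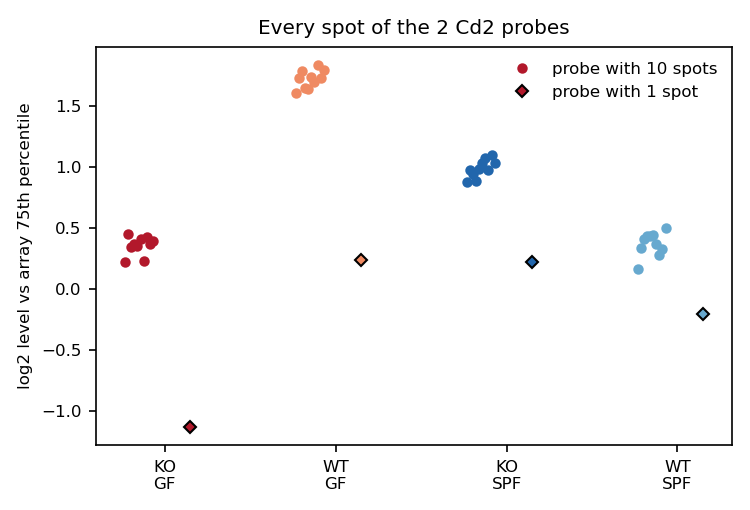
Every spot of both Cd2 probes on the KO GF, WT GF, KO SPF and WT SPF arrays (log2 relative to the array's 75th percentile, vertical axis). Circles are the 10 spots of the main probe and diamonds the single spot of the second. On both probes the KO GF spots lie below the WT GF spots.

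Thy1, the CD90 antigen of T cells and innate lymphoid cells that fibroblasts also carry, differed by less than 2-fold in every comparison. It read -0.28 ± 0.15 on the KO GF and 0.42 ± 0.15 on the WT GF array, against 0.14 ± 0.15 on the KO SPF and -0.54 ± 0.15 on the WT SPF array. KO minus WT was -0.70 under GF and 0.68 under SPF housing. Of the fibroblast markers, KO minus WT under GF housing was 0.86 for Col1a1, 0.15 for Pdgfra and -0.47 for Dcn, and under SPF housing it was -0.58, -0.74 and -0.71 for these genes.

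Il7r showed the largest difference among those of the 9 genes measured above background on both arrays. It encodes the alpha chain shared by the receptors of IL-7 and of TSLP. Its processed signal was 259 ± 26 units on the KO GF and 525 ± 53 on the WT GF array, against 2946 ± 295 on the KO SPF and 713 ± 71 on the WT SPF array. The KO SPF array stands alone as the high one. In levels these are 0.33 (KO GF), 1.46 (WT GF), 4.22 (KO SPF) and 2.11 (WT SPF).

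Under SPF housing the KO-labelled array was thus 4.34-fold above the WT array (2.12 ± 0.20, and 2.02 to 2.18 over 10 alternatives). Among the brightest 3719 genes in this pair, where Il7r lies, 2.85% were at least 2-fold higher. Under GF housing the direction was opposite, with a difference of -1.14 ± 0.20. It fell short of 2-fold with cyclic loess (-0.84), with the deposited table (-0.85) and when arrays were centred on the genes above background on all 4 (-0.93), the last an alternative added after the data were seen. GF minus SPF was -3.90, or 14.9-fold lower on the KO GF array, in KO-labelled cells and -0.64 in WT cells. The genotype difference under SPF minus that under GF housing was 3.25, and 18 of 12884 genes above background on all 4 arrays (0.14%), Il7r included, had one at least this far in the same direction.

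The 3 genes nearest to Il7r by profile were Stat4 (distance 0.21), which encodes a transcription factor downstream of IL-12, Ramp3 (0.25), a partner of peptide hormone receptors, and Tnfaip2 (0.25), a gene induced by tumour necrosis factor. Only 1 gene of 12883 lay within 0.25. Ramp3 read 0.69 (KO GF), 1.94 (WT GF), 5.24 (KO SPF) and 2.86 (WT SPF). Ccr7, the receptor by which mature dendritic cells and naive T cells reach lymph nodes, was number 8 (0.31), at -0.54, 1.37, 4.01 and 1.91 in that order. Cd79a, part of the B cell receptor, was number 32 (0.47), at -2.96, -2.59, 1.16 and -0.68. No other gene of the list came near, the closest being Thy1 at a distance of 1.38.

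The window before the annotated start of Il7r is shown because this gene carries the largest difference. It lies at chr15:9529827-9530126, minus strand, GRCm38.p6, and capitals mark the ETS core as above.
Il7r: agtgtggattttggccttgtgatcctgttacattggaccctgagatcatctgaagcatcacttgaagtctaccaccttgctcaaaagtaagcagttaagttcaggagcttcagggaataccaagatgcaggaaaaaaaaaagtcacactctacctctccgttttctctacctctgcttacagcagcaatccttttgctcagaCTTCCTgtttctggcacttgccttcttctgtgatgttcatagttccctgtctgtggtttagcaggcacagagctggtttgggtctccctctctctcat
The single match begins at base 203 of the window.

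Neither chain that pairs with the IL-7 receptor alpha chain differed by 2-fold between genotypes under SPF housing. Il2rg, the common gamma chain that pairs with it, read 3.38 (KO GF), 4.68 (WT GF), 4.54 (KO SPF) and 4.73 (WT SPF), and Crlf2, which pairs with it for TSLP, read 2.09, 2.66, 3.13 and 3.11. KO minus WT under SPF was -0.18 and 0.02 for these genes, and -1.29 and -0.57 under GF housing. The 2 probes of Jak3, the kinase bound to the common gamma chain, disagreed under SPF housing, with differences of -0.29 by the brighter and 1.74 by the other. Il7 itself was above background on the KO GF array alone. Tslp read -0.40 (KO GF) and 0.74 (WT GF), against -2.63 (KO SPF) and -2.49 (WT SPF).

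Il23r, the receptor chain specific to IL-23, was dim. Its processed signal was 69.6 ± 7.7 units on the KO GF and 6.1 ± 3.0 in WT GF cells, and 16.3 ± 4.0 on the KO SPF and 2.3 ± 2.3 on the WT SPF array. Both KO-labelled arrays were well above background and both WT arrays were not. By the bound, Il23r was at least 5.25-fold higher on the KO GF than on the WT GF array and at least 1.83-fold higher on the KO SPF than on the WT SPF array. With normexp, which adds an offset of 50 to every signal, the differences were 0.81 under GF and 0.22 under SPF housing. GF minus SPF in KO-labelled cells was 1.71 ± 0.39 (0.64 with normexp). Among the dimmest 3925 genes of the GF pair and 3720 of the SPF pair, where Il23r lies, 19.2% and 13.0% were at least 2-fold higher in KO minus WT. Il12rb1, the other chain of the receptor, was below background on the KO GF array and read -2.79 (WT GF), -2.94 (KO SPF) and -2.56 (WT SPF) by its brightest probe. A second Il12rb1 probe went the other way under GF housing, above background at -3.27 on the KO GF array and below background in WT GF cells, so no direction is given. Il23a, the chain of the ligand made by myeloid cells, was at least 3.54-fold lower on the KO GF than on the WT GF array, opposite to Il23r.

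Il22 was low and higher under GF housing. Its processed signal was 46.2 ± 5.6 units on the KO GF and 59.5 ± 6.6 on the WT GF array, against 14.8 ± 2.9 on the KO SPF and 17.3 ± 2.8 on the WT SPF array. Both GF arrays were above both SPF arrays. GF minus SPF was 1.25 ± 0.34 in KO-labelled and 1.58 ± 0.28 in WT cells, but 0.28 and 0.46 with normexp. In KO-labelled cells it was also under 2-fold with quantile (0.95), cyclic loess (0.91) and median scaling (0.97). Among the dimmest 3893 genes in KO-labelled and 3914 in WT cells, 41.6% and 33.5% were at least 2-fold higher on the GF array. KO minus WT was -0.48 ± 0.24 under GF and -0.16 ± 0.37 under SPF housing. The 3 genes nearest by profile were Gas2l1 (0.05), Glrx5 (0.06) and Disp2 (0.06), and 306 lay within 0.25.

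The Il22 window, shown because it holds the TATA box motif in capitals, lies at chr10:118204714-118205013, plus strand, GRCm38.p6.
Il22: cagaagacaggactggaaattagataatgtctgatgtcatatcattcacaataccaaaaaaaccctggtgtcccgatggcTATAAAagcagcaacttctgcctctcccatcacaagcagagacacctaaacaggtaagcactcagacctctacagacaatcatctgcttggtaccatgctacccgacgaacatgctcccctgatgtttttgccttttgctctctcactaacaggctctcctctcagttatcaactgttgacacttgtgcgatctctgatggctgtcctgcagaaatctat
The match begins at base 81 of the window.

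Genes of IL-22 action were followed from the fixed lists. Il22ra2, the soluble protein that binds and blocks IL-22 and is made by gut dendritic cells, read 3.23 (KO GF), 5.01 (WT GF), 2.17 (KO SPF) and 0.67 (WT SPF). GF minus SPF was 1.06 in KO-labelled and 4.34 in WT cells, and KO minus WT was -1.78 under GF housing and above 0 under SPF housing. Il22ra1, the receptor chain of epithelial cells, read -0.61 (KO GF) and -2.18 (WT GF), was below background on the KO SPF and read -3.69 on the WT SPF array. A second Il22ra1 probe read -2.20 (KO GF) and -2.94 (WT GF) and was below background on both SPF arrays. The summed epithelial markers given above were higher on the GF arrays too, and their part in these values was not tested.

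Of the 17 innate lymphoid factors and receptors, 9 of 15 measured were at least 2-fold lower and 2 higher in GF minus SPF of KO-labelled cells (median -1.29), where 15.4% of all genes were lower. Housekeeping genes (median -0.98, 0 of 5 above 0), dendritic cell markers (-1.20) and macrophage markers (-0.97) were on the same side in that comparison, and their part in the list's median was not tested. In WT cells 3 of 14 were lower and 3 higher (median -0.72), where 9.44% of all genes were lower and 17.5% higher. Id2 (-2.53 and -0.89), Nfil3 (-2.09 and -0.60) and Ahr (-2.11 and -0.38 by its brightest probe) were among the lower ones in KO-labelled cells. All of them are expressed by dendritic cells too. A second Ahr probe, above background on all 4 arrays, gave -3.06 in KO-labelled and -1.78 in WT cells. Of the 12 lymphoid effector cytokines, Il5, Csf2 and Il21 were below background on every array. Il13, a product of type 2 cells, was above background on both SPF arrays alone (-2.02 KO and -1.42 WT) and at least 3.81-fold (KO) and 5.83-fold (WT) lower on the GF arrays. Il17a was above background on both GF arrays alone (-3.78 KO and -3.93 WT), but by the bound it was only at least 1.06-fold (KO) and 1.16-fold (WT) higher there. Gata3 itself read -4.35 (KO GF), -4.00 (WT GF), -3.56 (KO SPF) and -5.60 (WT SPF), none of them well above background.

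**Figure D5:**
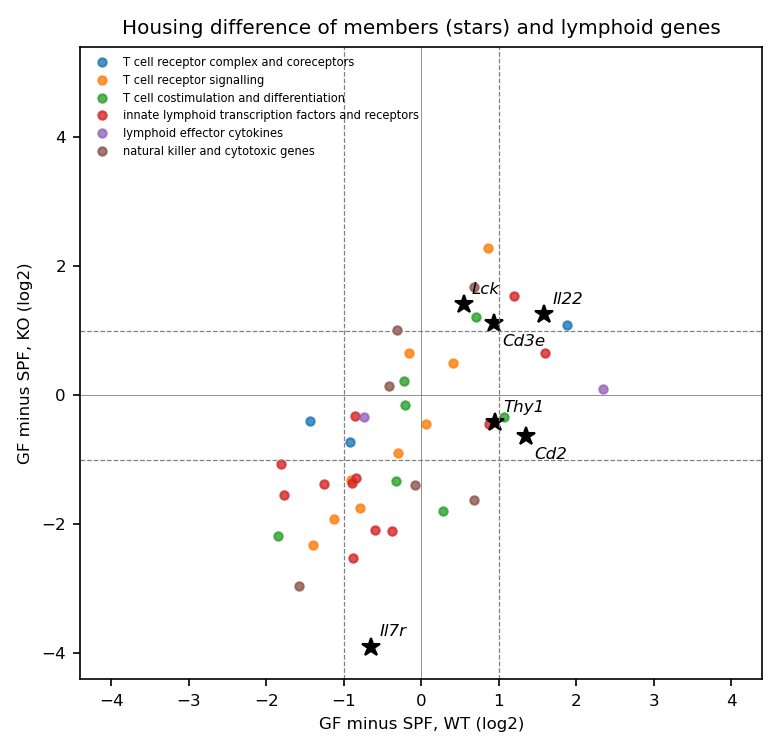
GF minus SPF in KO-labelled cells (vertical axis, log2) against GF minus SPF in WT cells (horizontal axis, log2) for genes above background on all 4 arrays, with 6 of the 9 genes as stars and 39 further lymphoid genes as circles coloured by list. Cd3e, Lck and Il22 lie above 0 on both axes, Il7r lies below 0 on both, and Cd2 and Thy1 lie below 0 in KO-labelled and above 0 in WT cells.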

How the data were processed

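Sorted colonic dendritic cells were profiled on 4 Agilent 1-colour mouse arrays, 1 for each group. Per the labels' protocols, cDNA was amplified with the Ovation Pico WTA system and then carried the Cy3 dye. Per the file headers, the authors' scanner files were made with Feature Extraction 10.10.1.1 (protocol GE1_1010_Sep10, design build mm9) and hold a background-subtracted signal intensity for each spot. The deposited series table holds the same intensity times a constant of 8.24 (KO SPF), 8.30 (WT SPF), 7.96 (KO GF) or 7.08 (WT GF) (linear, genes not centred), with column medians of 216.3, 237.2, 331.4 and 235.7. The rule behind these constants stays unknown.

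From these, log2 values were scaled here by each array's 75th percentile over 55597 probes. Control spots (3671), flagged spots and 84 probes flagged throughout an array were left out, and spots of a probe were averaged. Accessions were matched without version to RefSeq of GRCm38.p6, naming 27191 probes and leaving 28406 unnamed. The brightest probe stood for a gene. The number of arrays limits the precision, and no model was fitted, because the only residual would be the genotype by housing difference. Alternatives were normexp (offset 50, limma 3.58.1 in R 4.3.3, on median signals, as the files hold no mean signal), quantile, cyclic loess and median scaling, the deposited table, the mean over probes, other filters and bounds for dim values. The calculations were tested on simulated data. Python 3.11.15 was used, with matplotlib 3.10.9 for the plots. The 9 genes and all lists were chosen with earlier results of these data known. Named were the 9 genes with every probe, list genes at least 2-fold different and above background on both arrays of a pair (at most the 4 largest for each list and pair), the receptor complex and partner lists where described, up to 3 markers of each other cell type, and the 3 genes nearest in profile to each of the 9 genes that was above background on all arrays and spanned at least 1. Bcl11b, Il2ra, Il13, Il17a, Il5, Csf2, Il21 and Prf1, and the remarks on Ccr7, Cd79a, Gzma and Lck as neighbours in profile, were chosen after their values were seen. A gene below background on 1 array of a pair entered the 2-fold counts with its measured value. Il12b and Itgae are not analysed here.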

Additional observations from a re-analysis of the deposited data

Results flagged for a closer look

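The genotype differences of Il7r and Cd2 had opposite signs under the housings, at least 2-fold in both for Il7r and under GF housing alone for Cd2. Those of Lck (-0.25 under SPF and 0.61 under GF) and Thy1 (0.68 and -0.70) had opposite signs too, under 2-fold in each housing. For Il7r, KO minus WT was 2.12 under SPF and -1.14 under GF housing, so the first minus the second was 3.25. For Cd2 these were 0.62 and -1.37, and the first minus the second was 1.98. Each housing has 1 array of each genotype, and the difference between the housings was not tested. The GF arrays also differ in Xist, as given above.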

How the results depend on the processing

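No paired analysis was possible because the labels give no replicate numbers and each group has 1 array, so no array could be left out either. Of 286 values of single genes over 29 differences and up to 10 alternatives, 0 called differences turned sign, 17 called differences fell under 2-fold and 21 moved by more than the scanner's error. The counts of genes at least 2-fold different moved mostly with the handling of dim signals. With normexp, 1 gene in place of 2 was higher in KO minus WT under SPF, 0 in place of 1 in KO minus WT under GF, 1 in place of 4 in GF minus SPF of KO-labelled cells and 1 in place of 2 in GF minus SPF of WT cells. Requiring signal above background on both arrays left 1 higher in KO minus WT under SPF and 0 under GF housing, and setting dim values to their bound left 1 under SPF. Without a filter on dim probes, 2 genes were lower in GF minus SPF of KO-labelled cells, the second being Cd3g, and 4 were higher in WT cells, including Gata3 and Il23r, which were below background on both arrays. The median of the genes in GF minus SPF of KO-labelled cells then turned to -0.42, with 9 genes counted. Median scaling gave 2 higher genes in GF minus SPF of KO-labelled cells and the mean over probes 1 in WT cells. The 4-fold difference of Il7r under SPF housing, its GF minus SPF difference in KO-labelled cells, the Cd2 difference under GF housing and the Lck difference in KO-labelled cells stayed past 2-fold in all 10 alternatives. The other filters and the bounds for dim values cannot move these genes, which were above background on all arrays. Nor can the mean over probes move Il7r and Lck, which have a single probe. For all genes the higher and lower counts in KO minus WT under GF housing were 1382 and 1220, but 2291 and 571 with the deposited table, 903 and 2506 with median scaling and 287 and 353 with normexp. In the same order of settings they were 835 and 983, 724 and 1141, 926 and 897 and 179 and 92 in KO minus WT under SPF housing. In GF minus SPF of KO-labelled cells they were 3364 and 2400, but 4613 and 1501 with the deposited table, 2588 and 3503 with median scaling and 1211 and 1256 with normexp. Centring on genes above background on all arrays, an alternative chosen after the data were seen, gave 2017 and 694 in KO minus WT under GF housing, and 2346 and 1905 in place of 2735 and 1478 in GF minus SPF of WT cells. Signals near background limit Cd3g, Gata3, Il22 and Il23r, for which the scanner's error is largest.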

Other observations

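Of 10 cytotoxic and natural killer genes, 6 and 8 were well above background on the KO GF and WT GF arrays, and 9 and 7 on the KO SPF and WT SPF arrays. Their summed linear levels were close, at 12.9 (KO GF), 10.6 (WT GF), 11.2 (KO SPF) and 10.9 (WT SPF), but the brightest genes, Prf1 among them, carry most of such a sum. In GF minus SPF of KO-labelled cells, 6 of 9 measured were at least 2-fold lower and 2 higher (median -1.39). Of all genes 15.4% were lower and 21.6% higher there, and housekeeping genes had a median of -0.98. In WT cells 1 of 8 was lower and 1 higher (median -0.20), where 9.44% of all genes were lower and 17.5% higher. Single genes went different ways. Gzma, a granule protease, read -3.37 (KO GF), -3.12 (WT GF), -0.41 (KO SPF) and -1.54 (WT SPF), and Klrd1, the CD94 receptor chain, read -0.41, 1.45, 1.21 and 0.77 in that order. Prf1, which encodes perforin, read 2.60, 1.74, 1.59 and 2.06, and Fasl, the ligand of the death receptor Fas, read 0.99, 0.30, -0.69 and -0.39. Areg, which encodes amphiregulin, a product of innate lymphoid and regulatory T cells among others, read 1.30 (KO GF), 0.94 (WT GF), 1.20 (KO SPF) and -1.40 (WT SPF), so the WT SPF array was the low one. Il2ra, the alpha chain of the IL-2 receptor, was above background on the KO SPF array alone and at least 3.49-fold higher there than on the WT SPF array. Ltb, which encodes lymphotoxin beta, was lower on the KO-labelled array under both housings (-1.45 under GF and -1.85 under SPF), and so was Icos by its brightest probe (-1.05 and -1.12), although a second Icos probe gave -0.40 and 0.40.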
